A study of Homo sapiens with 8 samples.

Results

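Kinesins are motor proteins that walk along microtubules, and 42 of the 14526 genes in the deposited expression table are kinesin genes by their symbols. The members were taken as every row named KIF with a number, a KIFC symbol from KIFC1 to KIFC3, or KLC1, KLC2 or KLC4, which encode light chains of the first kinesin described. In the human annotation (GENCODE release 44, hg38), 46 genes match these symbols. The other 4, KIF19, KIF2B, KIF4B and the pseudogene KIF28P, have no row in the table, which holds only genes above an expression minimum. The 42 members were placed in 3 lists by their known roles: 12 mitotic kinesins, 20 transport kinesins and 10 other kinesins. The RNA came from cells labelled HepG2, a line derived from a human liver carcinoma, cultured with serum, with 4 control replicates and 4 replicates exposed to sodium benzoate (SB) at 10 mM for 24 h. Sodium benzoate is a food preservative that cells can convert to benzoyl-CoA, and the labels name no other agent or genetic change in either group.

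A kinesin heavy chain couples ATP hydrolysis in its motor domain to stepping along the microtubule, and its tail binds cargo, light chains or other microtubules. Transport kinesins carry vesicles, mitochondria, endosomes and protein complexes, most of them toward the plus ends of microtubules at the cell edge. Mitotic kinesins build the spindle, move and align chromosomes and organize the midzone where the cell divides, and their genes are transcribed mainly before and during mitosis. The remaining members act in cilia and Hedgehog signaling, take microtubule ends apart, or have roles that are less well known.

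Each value is an RPKM, the reads of a gene per kilobase of its counted length, scaled to the size of its library. Whole reads could be recovered from these values for 100% of the 14526 genes, and the libraries held between 36990075 and 44878414 reads on them. A member had between 41 and 17851 reads in a library. Of 20 genes that define hepatocytes or HepG2 cells, 16 have no row, among them ALB, AFP and APOA1, and TF, CYP2E1 and ASGR1 have rows with control means of 0.192, 0.188 and 1.08 RPKM. These values go against the label HepG2, so the name is used here only as the label gives it. One library stood apart from the rest. The reads of control replicate 1 differed from those of the other controls by a chi-square of 33.4 to 38.4 per degree of freedom, against 1.52 to 3.80 for every other pair within a group. The GC content of the genes accounted for 49.0% of the variance of its log ratios to the mean of the other controls, and for 33.6%, 33.2% and 14.7% for control replicates 2, 3 and 4 measured the same way. For replicates 2, 3 and 4 that mean includes replicate 1, so their values are not independent of it. Among the 4 controls, replicate 1 was lowest for 20 of the 42 members, highest for 17 and neither for 5, so values without it are given wherever they change a call.

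More kinesin genes rose than fell with SB in the deposited values, whereas 14 rose and 14 fell under a correction for GC content and length. A limma fit of log2(RPKM + 1) was made to the whole table and its p-values were adjusted by Benjamini-Hochberg. In it 20 of the 42 members were higher in the SB-treated replicates at an adjusted p below 0.05, 6 were lower and 16 did not pass. Across the whole table, 65.6% of the genes passed in either direction, 33% as higher and 32.6% as lower, while the kinesin genes passed in 61.9% of cases, 47.6% as higher and 14.3% as lower. Their median log2 fold change was 0.12, against 0.005 over all genes. Most changes were small. The median absolute log2 fold change was 0.16 for the members and 0.20 for all genes, and 3 members, KIF1A, KIF3B and KIF13B, exceeded 0.5. For 19 members all 4 SB-treated values lay above all 4 control values, and for 7 they lay below, where 31% and 30.5% of all genes did so. Without control replicate 1 the counts became 21 higher and 11 lower, with 37.6% and 37.9% of all genes. With each library corrected for the GC content and counted length of the genes, a setting chosen after seeing the data, 14 members were higher and 14 lower, while 4464 of 13290 genes with a GC value were higher and 4966 lower. The correction was fitted to each library without regard to its group. It therefore also removes any change with SB that follows GC content or length, and cannot tell such a change from a bias of the libraries. The scaling between libraries also bears on these counts. Without the TMM factors, which correct library sizes for the makeup of the RNA, 24 members were higher and 4 lower, and higher genes made up 65.1% of all called genes against 50.2% with the factors. Adding 1 before taking logs shrinks the fold changes of low genes.

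The mitotic and the transport kinesins were set side by side. Of the 20 transport kinesins, 12 were higher and none was lower by limma at an adjusted p below 0.05, with 8 not passing and a median log2 fold change of 0.15. KLC1 alone was lower at an unadjusted p below 0.05, and 1 gene, again KLC1, was lower by voom on the recovered reads. Without control replicate 1 the counts were 13 higher and 3 lower (KIF17, KLC1 and KLC4), where 37.6% and 37.9% of all genes passed. Of the 12 mitotic kinesins, 5 were higher, 1 was lower and 6 did not pass, with a median of 0.04. The 10 other kinesins split into 3 higher, 5 lower and 2 not passing, with a median of -0.14. Higher and lower calls were 60% and 0% of transport, 41.7% and 8.33% of mitotic and 30% and 50% of other kinesins. Over all genes they were 33% and 32.6%. Summed over its 12 genes, the mitotic list stood at 285 ± 6.84 RPKM in the controls (SD, n = 4) and 287 ± 2.93 RPKM with SB (SD, n = 4), a ratio of 1.01. The sum of the transport list was 262 ± 3.51 RPKM in the controls and 288 ± 1.54 RPKM with SB (SD, n = 4 each), a ratio of 1.1. All 4 SB-treated transport sums, 287 to 290 RPKM, lay above the 4 control sums, 259 to 266 RPKM, whereas the mitotic sums overlapped. Such sums follow a few genes. The largest gains in transport RPKM were in KIF1A (means 8.82 and 18.8) and KIF3B (8.39 and 15.7). The most abundant mitotic genes, KIF11 (62.7 and 55.7) and KIF22 (60.4 and 56.4), had lower means with SB, against the 5 genes called higher. No test was made of the difference between the lists. Transport kinesin genes also had longer counted lengths, with a median of 6180 bases against 4395 for the mitotic list and 3340 over all genes. Under the GC and length correction the transport counts became 9 higher and 6 lower and the mitotic counts 4 higher and 2 lower. Of the 13290 genes with a GC value, 4464 were then higher and 4966 lower. In bulk RNA of this kind, a change in the share of dividing cells and one in RNA per cell cannot be told apart.

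**Figure D1:**
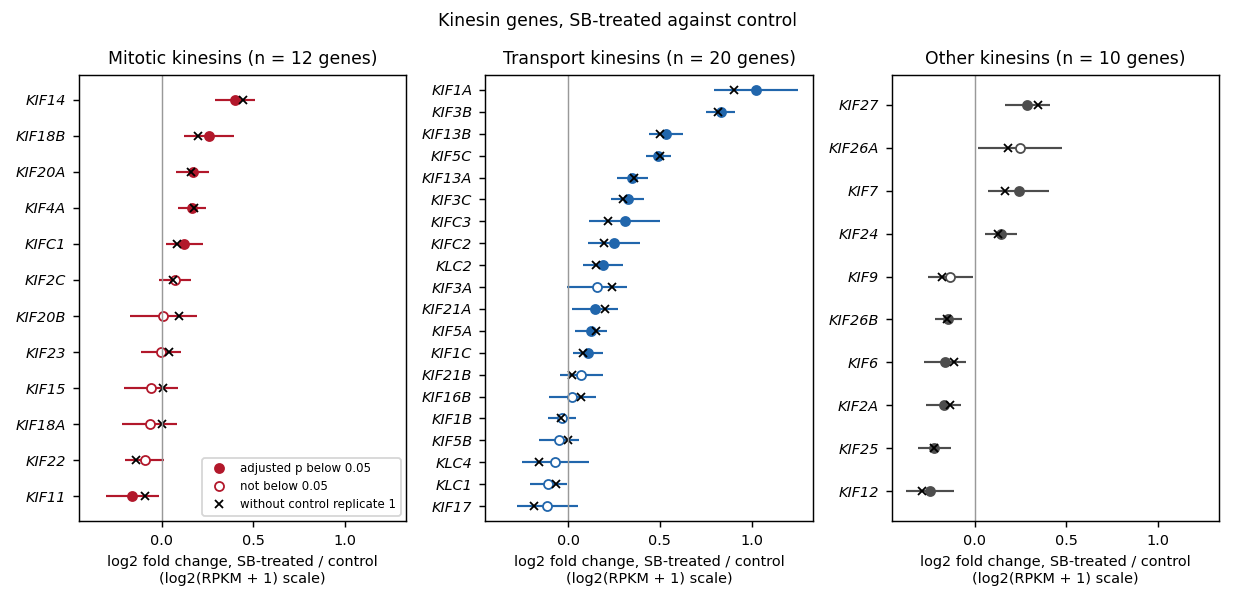
Log2 fold change of each kinesin gene, SB-treated over control, on the log2(RPKM + 1) scale, with the 95% confidence interval from limma (4 replicates per group). Filled points have an adjusted p below 0.05, open points do not, and crosses give the value without control replicate 1. The highest transport point is 1.03, for KIF1A, while no mitotic point from all 8 libraries exceeds 0.40. Without control replicate 1 the cross of KIF14 is at 0.44. The GC and length correction, under which KIFC1 and KIF1C turn negative, is not drawn.

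Kinesin-1, the main carrier of organelles and the first motor of the family to be purified, is a tetramer of heavy chains (KIF5A, KIF5B or KIF5C) and light chains that bind adaptors. KIF5B, on chr10:32009015-32056425 (minus strand), is the form found in every tissue and was the most abundant transport kinesin. It gave 71.2, 61.7, 64.0 and 61.4 RPKM in control replicates 1 to 4 and 63.4, 60.4, 62.0 and 63.1 RPKM in SB-treated replicates 1 to 4. The groups overlapped, and control replicate 1 was the highest library. Its log2 fold change was -0.05 (95% confidence interval -0.16 to 0.06, limma adjusted p = 0.393), and it passed as lower, at -0.09, under the GC and length correction (adjusted p = 0.0117). KIF5C, a form known chiefly from neurons (chr2:148875227-149026759, plus strand), was far lower per length. Its level was 6.74, 6.65, 6.68 and 6.46 RPKM in the controls and 9.86, 9.74, 9.57 and 9.74 RPKM with SB. Every SB-treated value lay above every control, with little spread within either group. The change was 1.47-fold, or 0.49 on the log2 scale (SE 0.03, limma adjusted p = 1.42e-06, exact permutation p = 0.0286, the smallest that 4 against 4 can give). KIF5A, the other neuronal form, rose less, from 6.27 ± 0.303 to 6.92 ± 0.161 RPKM (SD, n = 4, log2 fold change 0.13, limma adjusted p = 0.0173). That call was lost without control replicate 4 (adjusted p = 0.0505), without SB-treated replicate 4 (adjusted p = 0.0540) and under the GC and length correction.

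The sum of the heavy chains overlapped between the groups, at 77.5 ± 4.91 RPKM in the controls and 78.9 ± 1.43 RPKM with SB (SD, n = 4). KIF5C supplied between 7.96% and 8.90% of the sum in the controls and between 12.2% and 12.6% with SB, and the share of KIF5B went from 83.3 ± 0.664% to 78.9 ± 0.404% (SD, n = 4). Both shares separated the groups without overlap. Among the light chains, KLC2 rose from 17.9 ± 1.11 to 20.6 ± 0.757 RPKM (SD, n = 4, log2 fold change 0.19, limma adjusted p = 0.00667). KLC3, a light chain that the rule does not include, rose from 12.6 ± 1.18 to 16.0 ± 0.848 RPKM (SD, n = 4, log2 fold change 0.33, limma adjusted p = 0.00157). KLC1, the most abundant, stood at 48.9 ± 2.98 and 45.2 ± 0.908 RPKM and missed the threshold (log2 fold change -0.11, limma adjusted p = 0.0562), although all SB-treated values lay below all controls. Without control replicate 1, the highest, KLC1 passed as lower (log2 fold change -0.07, adjusted p = 0.0360). KLC4 stood at 9.05 ± 1.23 and 8.52 ± 0.323 RPKM (log2 fold change -0.07, adjusted p = 0.466), and it too passed as lower without control replicate 1 (log2 fold change -0.16, adjusted p = 0.00301). Exons of KLC1, KLC4 and KIF5A overlap exons of genes on the opposite strand, and the strand setting of the counting is not given in the sources used here, so reads of both may be included. Over all annotated exons the overlap was 5828 bases for KLC1, 612 for KLC4 and 71 for KIF5A.

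Kinesin-2 drives transport into cilia and moves endosomes and melanosomes, as a trimer of KIF3A, either KIF3B or KIF3C, and the non-motor subunit KIFAP3. KIF3B (chr20:32277651-32335011, plus strand) gave 8.07, 8.50, 8.29 and 8.71 RPKM in control replicates 1 to 4. With SB it gave 16.0, 15.3, 16.0 and 15.7 RPKM. These groups lay far apart compared with the spread inside them. KIF3B rose 1.87-fold, by 0.83 on the log2 scale (SE 0.04, limma adjusted p = 2.03e-07, exact permutation p = 0.0286). KIF3C rose from 5.98 ± 0.281 to 7.74 ± 0.244 RPKM (SD, n = 4, log2 fold change 0.33, limma adjusted p = 7.9e-05). The shared partner KIF3A did not pass, at 9.67 ± 1.27 and 10.8 ± 0.284 RPKM (log2 fold change 0.16, adjusted p = 0.0840). Its highest control was replicate 1, without which it passed as higher (log2 fold change 0.24, adjusted p = 1.28e-04). KIFAP3, which the rule does not include, went the other way, from 17.7 ± 0.747 to 13.2 ± 0.338 RPKM (SD, n = 4, log2 fold change -0.40, limma adjusted p = 1.83e-05). In the sum of the motor subunits, 24.0 ± 0.922 RPKM in the controls and 34.3 ± 0.473 RPKM with SB (SD, n = 4), KIF3B passed KIF3A. KIF3A made up 40.1% and KIF3B 35.0% of the control sum, while with SB KIF3A made up 31.6% and KIF3B 45.9%. KIF17, a kinesin-2 that works as a homodimer, stood at 7.59 ± 0.897 and 6.91 ± 0.376 RPKM and did not pass (log2 fold change -0.11, adjusted p = 0.198), but passed as lower without control replicate 1 (log2 fold change -0.19, adjusted p = 0.00244) and under the GC and length correction (-0.26, adjusted p = 2.92e-04).

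Kinesin-3 motors carry synaptic vesicle precursors, dense core vesicles, mitochondria and endosomes. KIF1A (chr2:240713761-240824293, minus strand), a fast neuronal carrier of vesicle precursors, changed most of the 42 members. In control replicates 1 to 4 it gave 6.57, 9.33, 9.68 and 9.69 RPKM, and in SB-treated replicates 1 to 4 it gave 18.2, 19.4, 19.4 and 18.2 RPKM. Control replicate 1 was well below the other controls, and every SB-treated value was far above all of them. The rise was 2.13-fold, or 1.03 on the log2 scale (SE 0.10, limma adjusted p = 1.95e-05, exact permutation p = 0.0286). It was 0.91 without control replicate 1 (adjusted p = 5.78e-08) and 0.78 after correction for GC content and length. KIF13B, a motor that binds the scaffold protein DLG1, was a low gene. Its control levels of 1.59, 1.78, 1.81 and 1.86 RPKM faced SB-treated levels of 3.02, 3.13, 2.83 and 2.97 RPKM. There was again no overlap, with a 1.70-fold rise in RPKM and a log2 fold change of 0.53 (SE 0.04, limma adjusted p = 5.04e-06, exact permutation p = 0.0286). KIF13A, its close relative in recycling endosomes, rose from 3.76 ± 0.187 to 5.06 ± 0.119 RPKM (SD, n = 4, log2 fold change 0.35, adjusted p = 3.48e-05).

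The other kinesin-3 carriers differed by less. KIF1C, which carries dense core vesicles and is widely expressed, stood at 22.9 ± 0.968 and 24.8 ± 0.196 RPKM (SD, n = 4) and passed as higher (log2 fold change 0.11, limma adjusted p = 0.0276). Under the GC and length correction its direction turned, and it passed as lower (-0.08, adjusted p = 0.0374), but not with the replicate block added (adjusted p = 0.0653). The call of KIF1C as higher was also lost without control replicate 4 and without any 1 of the SB-treated replicates, with adjusted p between 0.0514 and 0.0654. KIF1B, a carrier of mitochondria and vesicles, stood at 15.5 ± 0.408 and 15.1 ± 0.351 RPKM (log2 fold change -0.035, adjusted p = 0.387), but passed as lower, at -0.195, under the GC and length correction (adjusted p = 6.54e-05). KIF16B, which binds early endosomes, stood at 3.53 ± 0.345 and 3.60 ± 0.219 RPKM (log2 fold change 0.02, adjusted p = 0.759). Summed over the 6 carriers, kinesin-3 went from 56.3 ± 2.24 to 70.3 ± 0.465 RPKM (SD, n = 4), a ratio of 1.25, and the share of KIF1A in it went from 15.6 ± 2.15% to 26.8 ± 0.894%.

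**Figure D2:**
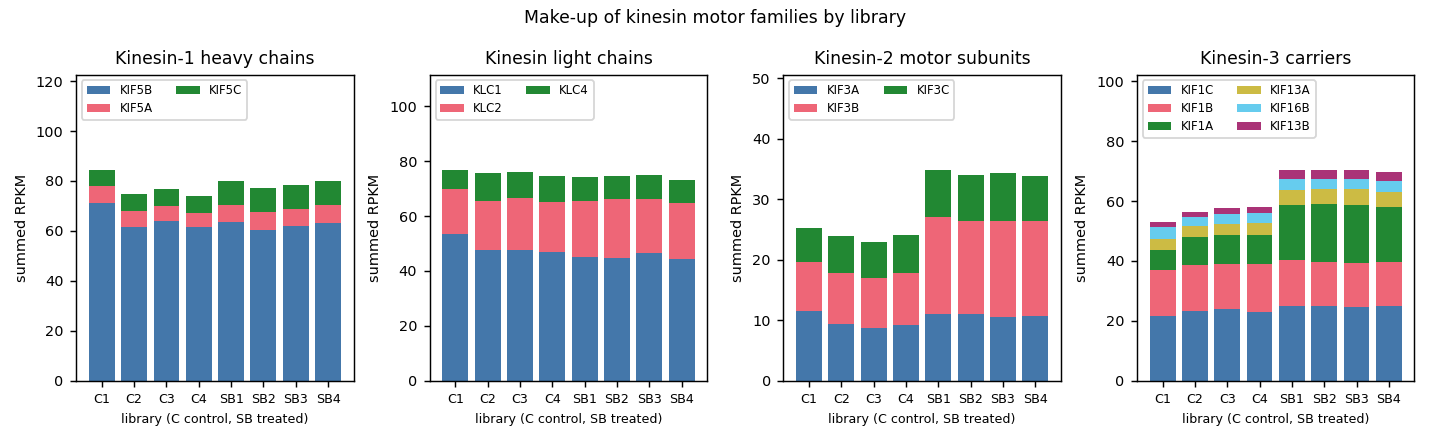
Summed RPKM of kinesin families in each of the 8 libraries (C1 to C4 control, SB1 to SB4 treated), stacked by gene. The families are the kinesin-1 heavy chains, the light chains KLC1, KLC2 and KLC4, the kinesin-2 motor subunits and the kinesin-3 carriers. The first 2 sums are close to level, at 77.5 and 78.9 RPKM for the heavy chains, whereas mean kinesin-2 is 24.0 RPKM in the controls and 34.3 RPKM with SB, with the KIF3B segment the wider, and mean kinesin-3 is 56.3 and 70.3 RPKM, with the KIF1A segment the wider.

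Among the transport kinesins outside these families, both minus-end motors rose. KIFC3, found at cell junctions and the Golgi, went from 3.57 ± 0.582 to 4.62 ± 0.305 RPKM (SD, n = 4, log2 fold change 0.31, limma adjusted p = 0.0112). KIFC2, a neuronal relative, went from 2.90 ± 0.386 to 3.61 ± 0.0929 RPKM (SD, n = 4, log2 fold change 0.25, adjusted p = 0.00683), and its call was lost under the GC and length correction. The kinesin-4 member KIF21A, which restrains microtubule growth near the cell edge, passed narrowly with overlapping groups (11.1 ± 1.0 and 12.4 ± 0.340 RPKM, log2 fold change 0.15, adjusted p = 0.0444). It failed in 11 of 16 alternative analyses, among them each one that left out a library other than control replicate 1, where its adjusted p was between 0.0542 and 0.120. KIF21B stood at 2.90 ± 0.274 and 3.09 ± 0.10 RPKM and did not pass (log2 fold change 0.07, adjusted p = 0.263). It passed as lower under the GC and length correction (-0.17, adjusted p = 1.61e-04) and as higher without the TMM factors (0.15, adjusted p = 0.0341).

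Of 22 listed adaptors and partners of transport kinesins, 21 have a row, and 8 were higher, 7 lower and 6 not passing, with a median log2 fold change of 0.03. That is 38.1% higher and 33.3% lower, near the 33% and 32.6% of all genes. MAPK8IP1, the scaffold that binds kinesin-1 light chains, rose from 9.42 ± 0.759 to 14.7 ± 0.464 RPKM (SD, n = 4, log2 fold change 0.60, limma adjusted p = 1.03e-05).

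Turning to cell division, KIF14 (chr1:200551497-200620751, minus strand), a midzone motor that works with citron kinase in cytokinesis, changed most among the mitotic kinesins. Its control levels were 11.1, 9.71, 9.51 and 9.97 RPKM and its SB-treated levels 14.1, 13.02, 13.6 and 13.6 RPKM. The groups did not overlap, and the highest control was replicate 1. KIF14 rose 1.35-fold, by 0.40 on the log2 scale (SE 0.05, limma adjusted p = 7.9e-05, exact permutation p = 0.0286), and by 0.44 without control replicate 1. KIF18B (chr17:44924709-44947773, minus strand), which trims astral microtubules, gave 14.8, 17.8, 17.3 and 18.3 RPKM in the controls and 21.0, 21.2, 20.2 and 19.9 RPKM with SB. Here control replicate 1 was the lowest library, and again the groups were apart. The log2 fold change was 0.26 (SE 0.06, limma adjusted p = 0.00418), or 0.20 without control replicate 1.

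KIF20A (chr5:138178719-138187723, plus strand), which brings the chromosomal passenger complex with Aurora B to the midzone, gave 18.6, 19.5, 18.1 and 20.2 RPKM in the controls. It gave 21.1, 22.3, 21.1 and 21.8 RPKM with SB, above every control, a log2 fold change of 0.17 (SE 0.04, limma adjusted p = 0.00504). KIF4A (chrX:70290104-70420886, plus strand), a motor on chromosome arms that also sets the length of midzone microtubules, gave 22.1, 20.7, 21.8 and 21.3 RPKM in the controls and 24.1, 24.0, 24.4 and 24.2 RPKM with SB. The SB-treated values were tightly grouped above the controls, and the log2 fold change was 0.16 (SE 0.03, limma adjusted p = 0.00174). Exact permutation p was 0.0286 for KIF18B, KIF20A and KIF4A alike. KIFC1, a minus-end motor that gathers spindle poles, passed as higher (6.54 ± 0.416 and 7.19 ± 0.213 RPKM, SD, n = 4, log2 fold change 0.12, limma adjusted p = 0.0385). Under the GC and length correction its direction turned, and it passed as lower (-0.09, adjusted p = 0.0233). Its call as higher was lost without control replicate 4 and without each SB-treated replicate in turn, with adjusted p between 0.0586 and 0.106.

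The mitotic kinesin that fell was KIF11 (chr10:92574105-92655395, plus strand), the motor that pushes spindle poles apart and the target of several antimitotic compounds. It was also the most abundant of its list. Control replicates 1 to 4 had 72.3, 58.6, 60.8 and 59.0 RPKM and SB-treated replicates 1 to 4 had 57.6, 53.8, 55.4 and 55.9 RPKM. All treated values lay below all controls, with control replicate 1 well above the rest. The log2 fold change of KIF11 was -0.16 (SE 0.06, limma adjusted p = 0.0487, exact permutation p = 0.0286). Leaving out control replicate 1 brought it to -0.09 (adjusted p = 0.0184). Its call was lost without control replicate 3 (adjusted p = 0.0670) and without SB-treated replicate 1, 2, 3 or 4 (adjusted p = 0.0616, 0.115, 0.0944 and 0.0874).

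The remaining 6 mitotic kinesins did not pass, with log2 fold changes between -0.09 and 0.07. KIF22, a chromosome arm motor and the second most abundant of the list, stood at 60.4 ± 3.77 and 56.4 ± 0.878 RPKM (SD, n = 4, log2 fold change -0.09, limma adjusted p = 0.103). Control replicate 1 was its lowest control, and without it KIF22 passed as lower (log2 fold change -0.14, adjusted p = 6.35e-04). The centromere depolymerase KIF2C had means of 28.6 and 30.1 RPKM, and KIF23, the motor of the centralspindlin complex, had 27.2 and 27.1 RPKM. KIF18A, which aligns chromosomes, had means of 10.9 and 10.4 RPKM. KIF15, which can share the work of KIF11, had 9.77 and 9.31 RPKM, and KIF20B, a cytokinesis motor, had 11.4 RPKM in both groups. Their limma intervals allow changes between -0.22 (KIF18A) and 0.19 (KIF20B) on the log2 scale.

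**Figure D3:**
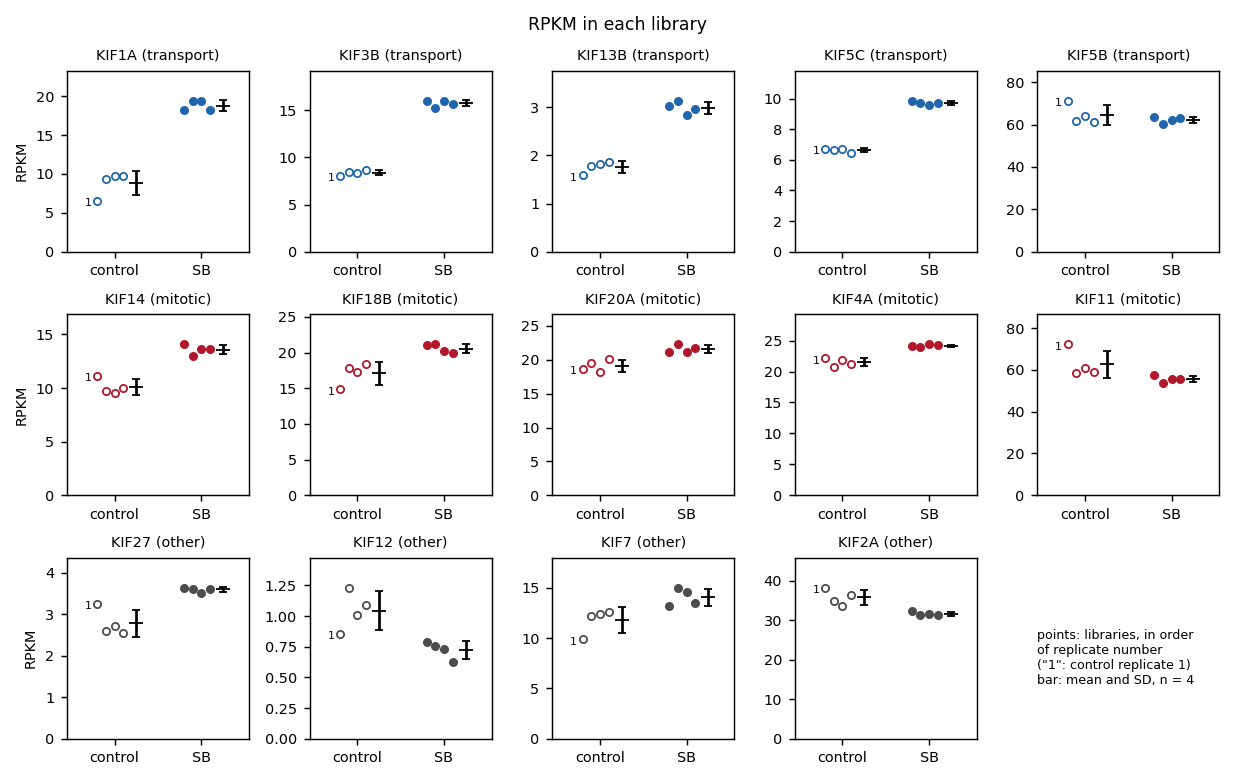
RPKM of the 14 members whose values are given library by library, 5 transport, 5 mitotic and 4 other kinesins, with control replicates as open points, SB-treated replicates as filled points, both in order of replicate number, and bars for mean and SD (n = 4). KIF1A, KIF3B, KIF13B and KIF5C separate widely, the mitotic genes by less, and control replicate 1 is marked because it lies away from the other controls for KIF1A, KIF18B, KIF11, KIF5B and KIF7.

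Genes that rise toward mitosis often share short promoter elements, so the promoters of the members were read from RefSeq (GRCh38.p14), which gave a window from 250 bases before to 50 bases after the start for 33 of the 42 members. Searched on both strands were the cell cycle homology region, taken as TTTGAA or TTCGAA, and the CCAAT box, taken as CCAAT. The first was found in 10 of 12 mitotic promoters (83.3%), missing in KIF20A and KIF2C, in 1 of 13 transport promoters (7.69%, KIF5B) and in 1 of 8 others (KIF24). Windows of the same length hold it in 10.9% of the 10651 genes with a row that could be matched and in 16.6% of all 27305 promoters of the table. The windows differ in base composition, with a median GC content of 62.2% for mitotic, 73.3% for transport and 65.3% for row-matched promoters. The shares are not adjusted for this. CCAAT was found in 83.3% of mitotic, 23.1% of transport and 36.4% of row-matched promoters, and both elements in 75% of mitotic promoters and 4.61% of row-matched ones. The 30-base stretches shown here, 5′ to 3′ in the sense of the gene with the match in capitals (TTCAAA is TTTGAA read on the other strand), come from mitotic genes that rose, fell and did not pass, and from the transport gene with a match, because the same letters stand in all of them.
KIF14, chr1:200620733-200620762, minus strand: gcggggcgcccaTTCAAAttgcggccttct
KIF18B, chr17:44947754-44947783, minus strand: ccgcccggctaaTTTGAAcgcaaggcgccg
KIF4A, chrX:70290058-70290087, plus strand: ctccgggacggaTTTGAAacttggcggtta
KIFC1, chr6:33391815-33391844, plus strand: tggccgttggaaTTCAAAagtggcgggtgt
KIF11, chr10:92593090-92593119, plus strand: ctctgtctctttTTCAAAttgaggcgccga
KIF23, chr15:69414282-69414311, plus strand: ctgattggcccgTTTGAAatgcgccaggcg
KIF5B, chr10:32056548-32056577, minus strand: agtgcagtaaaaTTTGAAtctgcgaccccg
In KIF11, KIF4A and KIF23 the match begins 28, 34 and 55 bases before the RefSeq start, and in KIF5B 140 bases before it. In KIF14, KIF18B and KIFC1 it lies just after the start. KIF14 and KIF18B, which rose, KIF11, which fell, and KIF23, at a log2 fold change of -0.004, carry the match alike. A match of letters is a description of the window, not evidence of a bound factor.

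Other genes of mitosis also went both ways, as the genes of the whole table did. Of 15 listed partners of mitotic kinesins, 4 were higher, 7 lower and 4 not passing by limma, with a median log2 fold change of -0.007. That is 26.7% higher and 46.7% lower, against 33% and 32.6% of all genes. Without control replicate 1, PRC1, RACGAP1 and ECT2 passed as higher too (adjusted p = 0.00476, 0.0364 and 6.02e-05), which gave 7 higher and 7 lower, or 46.7% each, where 37.6% and 37.9% of all genes passed. Of 16 genes that mark dividing cells, 4 were higher, 4 lower and 8 not passing, with a median of -0.03. At 25% in each direction, these calls were below the shares of all genes. Without control replicate 1, 5 of the 16 were higher and 5 lower, where 37.6% and 37.9% of all genes passed. The summed level of the 16 was 893 to 919 RPKM in the controls and 897 to 909 RPKM with SB, so the groups overlapped, and 0 of the 16 were at 0 in any library. INCENP, the scaffold of the passenger complex that KIF20A carries, rose from 14.8 ± 1.32 to 21.5 ± 0.477 RPKM (SD, n = 4, log2 fold change 0.52, limma adjusted p = 4.54e-05). The other listed genes of that complex, AURKB, BIRC5 and CDCA8, fell. Their log2 fold changes were -0.30, -0.12 and -0.12 (limma adjusted p = 2.73e-04, 0.0146 and 0.0142). CENPE, a kinetochore kinesin whose symbol the rule does not cover, rose from 16.8 ± 2.32 to 21.2 ± 0.812 RPKM (SD, n = 4, log2 fold change 0.33, adjusted p = 0.00458). FOXM1, a transcription factor of late cell cycle genes, rose from 38.1 ± 2.97 to 55.2 ± 0.768 RPKM (SD, n = 4, log2 fold change 0.53, adjusted p = 2.32e-05). CCNA2 fell most among the 16 genes of dividing cells, from 64.25 ± 8.75 to 48.4 ± 0.640 RPKM (SD, n = 4, log2 fold change -0.39, limma adjusted p = 0.00159).

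Of the 6 members that fell, 5 were among the 10 other kinesins. KIF2A (chr5:62306162-62391025, plus strand), a depolymerase at spindle poles and in neurites, was the most abundant of them. It gave 38.2, 34.9, 33.7 and 36.3 RPKM in the controls and 32.4, 31.3, 31.7 and 31.5 RPKM with SB, all lower than any control. Its log2 fold change was -0.17 (SE 0.04, limma adjusted p = 0.00604, exact permutation p = 0.0286), and the call was lost without the TMM factors (-0.07, adjusted p = 0.173). Counting KIF2A with the mitotic kinesins gives 5 higher and 2 lower of 13. KIF12 (chr9:114086126-114099292, minus strand), an epithelial kinesin linked to bile duct disease, gave 0.856, 1.23, 1.01 and 1.09 RPKM in the controls and 0.792, 0.753, 0.732 and 0.623 RPKM with SB. Control replicate 1 was its lowest control and stood close to the SB-treated values, without overlapping them. The log2 fold change was -0.24 with the pseudocount of 1 (SE 0.06, limma adjusted p = 0.00436, exact permutation p = 0.0286) and -0.52 by voom on the recovered reads, of which KIF12 had 58 to 97 per library.

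KIF25 fell from 1.045 ± 0.0667 to 0.755 ± 0.0612 RPKM (SD, n = 4, log2 fold change -0.22, limma adjusted p = 8.26e-04) and by 0.47 on the log2 scale by voom, from 41 to 68 reads per library. Under the GC and length correction it was -0.09 (adjusted p = 0.0417), and with the replicate number added as a block the call was lost (adjusted p = 0.0823). KIF26B, an atypical kinesin without motor activity, fell from 0.319 ± 0.0265 to 0.194 ± 0.0225 RPKM (SD, n = 4, log2 fold change -0.14, adjusted p = 0.00336), and by 0.72 on the log2 scale by voom. KIF6, a kinesin of motile cilia, fell from 0.555 ± 0.112 to 0.386 ± 0.0225 RPKM (log2 fold change -0.16, adjusted p = 0.0169). All 4 of these genes had low levels, where the pseudocount shrinks the fold change most.

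Another 3 of these kinesins rose. KIF27 (chr9:83834099-83921465, minus strand), a relative of KIF7, gave 3.25, 2.61, 2.71 and 2.56 RPKM in the controls and 3.64, 3.62, 3.52 and 3.62 RPKM with SB. Its highest control was replicate 1, still below every SB-treated value, and the log2 fold change was 0.29 (SE 0.06, limma adjusted p = 0.00129, exact permutation p = 0.0286). KIF7 (chr15:89608789-89663086, minus strand), the regulator of Hedgehog signaling at the ciliary tip, gave 9.88, 12.3, 12.5 and 12.6 RPKM in the controls and 13.2, 15, 14.6 and 13.5 RPKM with SB. Control replicate 1 was well below the other controls, and the groups did not overlap. The log2 fold change of KIF7 was 0.24 (SE 0.07, limma adjusted p = 0.0170, exact permutation p = 0.0286), and it did not pass without SB-treated replicate 2 (adjusted p = 0.0516). KIF24, which keeps cilia from forming by way of the centriole, went from 5.44 ± 0.268 to 6.10 ± 0.147 RPKM (SD, n = 4, log2 fold change 0.14, adjusted p = 0.00972). The calls of KIF7 and KIF24 were lost under the GC and length correction. KIF26A, the relative of KIF26B, missed the threshold (6.97 ± 0.905 and 8.48 ± 1.15 RPKM, log2 fold change 0.25, adjusted p = 0.0562), and its direction turned, to -0.04, under that correction. KIF9, a kinesin of motile cilia and flagella, also missed it (1.32 ± 0.154 and 1.11 ± 0.0955 RPKM, log2 fold change -0.13, adjusted p = 0.0536), but passed as lower without control replicate 1 (log2 fold change -0.18, adjusted p = 0.00320). Exons of KIF9, KIF2A, KIF7, KIF24, KIF20A and KIF4A share bases with genes on the opposite strand. Over all annotated exons the overlaps were 1048, 2446, 589, 144, 206 and 77 bases, in that order. KIF2A, with the largest of these, has a counted length of 4364 bases.

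**Figure D4:**
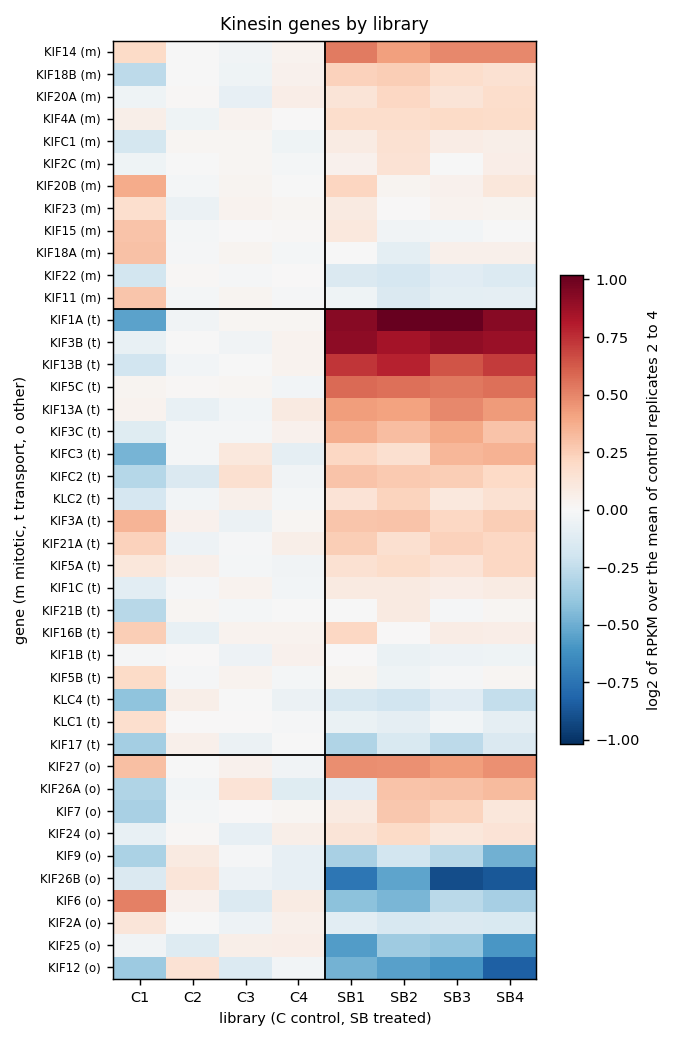
Log2 of each member's RPKM over the mean of control replicates 2 to 4, for the 42 members (m mitotic, t transport, o other; rows) in the 8 libraries (C control, SB treated; columns), red above and blue below, ordered by list and by log2 fold change. Control replicate 1 differs from the other controls in both directions, and KIF1A, KIF3B, KIF13B and KIF5C are high in all 4 SB-treated libraries, as KIF26B, KIF25 and KIF12 are low.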

How the data were processed

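RNA-seq of 4 control and 4 SB-treated samples labelled HepG2 was used, grouped by sample title. The study's methods call the replicates biological and do not say how they were grown, so p-values measure the spread between these samples. The authors mapped 50-base reads to hg38 with TopHat2 2.1.0, counted them per gene with featureCounts 1.5.0, filtered out genes that did not exceed 1 CPM in 2 or more samples, scaled libraries by TMM in edgeR 3.16.5 and deposited RPKM values. The authors' own fold changes, p-values and FDR stand in the same table and were not used. Every per-sample column of the table was used. The libraries were stranded; the strand setting of the counting is not given in the sources used here.

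Here log2(RPKM + 1) was fitted for all 14526 genes with limma 3.58.1 (lmFit and eBayes, two-sided) in R 4.3.3, with Benjamini-Hochberg adjustment and a threshold of 0.05. Single members were also compared by an exact permutation test, two-sided. Reads were recovered from the steps between RPKM values (tolerance 0.02 reads), leaving a common factor of all libraries to RefSeq gene lengths. The code was tested on simulated data. Values per library are given for the 4 mitotic, 4 transport and 3 other members with the largest absolute log2 fold change among those past the threshold and the most abundant member of each list; partners are named at an absolute log2 fold change of at least 0.5, with CENPE and KIFAP3 always. Named as well, after their values were seen, were AURKB, BIRC5, CDCA8, PRC1, RACGAP1, ECT2, CCNA2 and KLC3. The members and lists were chosen with earlier results of these data known. Alternatives were a pseudocount of 0.1, median-of-ratios scaling, no TMM factors, a mean RPKM of at least 1, the replicate number as a block, voom on recovered reads, leaving out each library, other list borders, and a GC and length correction.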

Additional observations from a re-analysis of the deposited data

Results flagged for a closer look

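In 9 of 84 groups of 4 libraries (42 members, each in the controls and in the SB-treated replicates), the most extreme library was farther from its neighbor, as a share of the group's range, than Dixon's 95% value for 4 samples allows. About 1 in 20 groups, here 4.2, would pass it by chance. In 8 of the 9 the library was control replicate 1. It was the highest control for KIF15 (share 0.902, 11.3 RPKM against 9.33 in the next), KIF18A (0.859, 12.7 against 10.5 RPKM), KIF20B (0.882, 13.7 against 10.8 RPKM) and KLC1 (0.916, 53.3 against 47.6 RPKM). It was the lowest control for KIF1A (0.902, 6.57 against 9.33 RPKM), KIF21B (0.861, 2.49 against 2.999 RPKM), KIF22 (0.864, 54.8 against 61.7 RPKM) and KIF7 (0.890, 9.88 against 12.3 RPKM). The remaining one was KIF26A, where SB-treated replicate 1 was lowest (0.929, 6.75 against 8.98 RPKM). KIF26A missed the threshold with all libraries (limma adjusted p = 0.0562) and passed as higher without SB-treated replicate 1 (log2 fold change 0.34, adjusted p = 0.00669), without control replicate 3 (adjusted p = 0.0272) and by voom (adjusted p = 0.0394).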

How the results depend on the processing

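Of the 26 members called, 16 kept their direction and call in every alternative tried: KIF14, KIF18B, KIF20A and KIF4A among the mitotic kinesins, 8 of 12 transport kinesins, KIF27, and 3 of the 5 others that fell, KIF12, KIF6 and KIF26B, which have no value under the RPKM minimum. Counts of lower genes were the least stable. Over all members 6 were lower, against 2 among genes with a mean RPKM of at least 1, where 38 members remain, 14 under the GC and length correction and 12 with that correction and the replicate block, each beside 14 higher. Of all genes, 4740 were lower in the main fit, 4476 at that RPKM minimum, 4966 under the correction and 4950 with the block added. For the mitotic list the 1 lower gene became 0 with a pseudocount of 0.1 and 0 without TMM factors, and 2 under the GC and length correction with and without the replicate block and with KIF2A in the list. For the transport list 0 lower genes became 1 by voom, 6 under the GC and length correction and 5 with the replicate block added, where 12 higher became 9. Leaving out 1 library at a time gave 5 to 11 lower over all members, 0 to 2 mitotic and 0 to 3 transport, the highest values each without control replicate 1, and 16 to 21 higher over all members. Of all genes, these fits called 4285 to 5511 lower and 4311 to 5459 higher, the highest values again without control replicate 1. Without TMM factors the median log2 fold change of all genes went from 0.005 to 0.079 and the share of higher genes among those called from 50.2% to 65.1%. The mitotic median was then 0.138, the transport median 0.247, and the counts over all members 24 higher and 4 lower. The GC and length correction, chosen after seeing the data, put the transport median at 0.090 with and without the block. The direction of 7 members below the threshold turned without TMM factors: KIF15 (0.036), KIF18A (0.030), KIF1B (0.064), KIF22 (0.009), KIF23 (0.098), KIF5B (0.053) and KLC4 (0.024). Under the GC and length correction, with or without the block, KIF16B (-0.079), KIF1C (-0.081), KIF20B (-0.053), KIF21B (-0.172), KIF23 (0.028), KIF26A (-0.035) and KIFC1 (-0.088) turned. Leaving out single libraries moved KIF15 between -0.089 and 0.007, KIF16B between -0.015 and 0.071, KIF18A between -0.093 and 0.003, KIF20B between -0.029 and 0.094, and KIF23 between -0.036 and 0.038. The cause of these changes was not tested.

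Same-numbered replicates deviated from their group means with correlations of 0.380, 0.327, 0.173 and -0.160, and 4 of 8 samples correlated best with their own number. The condition that every pair correlates was not met, so the numbers were not taken to pair the samples. With the replicate block, 22 members were higher and 7 lower, while 4885 of all 14526 genes were higher and 4894 lower. The block lost no member's call, and KIF26A (adjusted p = 0.00429), KIF3A (0.0470) and KIF9 (0.0306) passed. Depth limits KIF6, KIF12, KIF25 and KIF26B, which had the fewest reads.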

Other observations

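Dynein carries cargo toward the minus ends of microtubules, opposite to most kinesins, and dynactin is its cofactor. Of 27 listed genes of dynein, dynactin and their regulators, 26 have a row, and by limma 6 were higher, 10 lower and 10 not passing, with a median log2 fold change of -0.03. That is 23.1% higher and 38.5% lower, against 33% and 32.6% of all genes. DYNC1LI1, a light intermediate chain that links dynein to cargo adaptors, fell from 45.1 ± 3.85 to 30.6 ± 0.787 RPKM (SD, n = 4, log2 fold change -0.55, adjusted p = 2.44e-05). DYNC1LI2, its paralog, rose by 0.26 on the log2 scale (adjusted p = 5.51e-04), and DCTN1, the large dynactin subunit that binds microtubules, fell by 0.40 (adjusted p = 1.22e-04). The heavy chain DYNC1H1 did not pass (log2 fold change 0.07, adjusted p = 0.497). DYNC1LI2, DCTN1 and DYNC1H1 were chosen for naming after their values were seen.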
